A study of Mus musculus with 6 samples.

Results

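The genes described here are the neurotrophins Bdnf and Ntf3, the neurotrophin-induced secreted precursor Vgf, the Trk receptors Ntrk2 and Ntrk3, the shared neurotrophin receptor Ngfr and the sorting receptor Sort1. They were taken by symbol from a table of read counts per gene. All 7 symbols were found among the 24391 in the table, and all 7 passed the filter on low counts that left 15925 genes for testing. RNA was sequenced from the hemibrains of 6 mouse pups on postnatal day 0. Libraries labelled Celf2 -/- are replicates 2, 4 and 10, called labelled null below, and those labelled Celf2 +/- are replicates 6, 7 and 11, called heterozygous. CELF2 is a protein that binds RNA, and the mice of both groups carry at least 1 disrupted allele of its gene, so the comparison is of null with heterozygous brain and no wild type is included. The labels name neither the kind of allele nor the strain, sex or litter.

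Neurotrophins are secreted growth factors that keep neurons alive, guide their growth and adjust their synapses. They are made as precursors, which proteases cut to the mature form. BDNF acts mainly through TrkB, the product of Ntrk2, and NT-3, the product of Ntf3, mainly through TrkC, the product of Ntrk3. Both Trk receptors are tyrosine kinases that signal through the Ras-ERK, PI3K and phospholipase C gamma pathways. The p75 receptor encoded by Ngfr binds every neurotrophin and, together with the sortilin encoded by Sort1, binds their uncut precursors. Transcription of Bdnf and Vgf is known to increase with neuronal activity.

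Bdnf is transcribed from several start sites, and RefSeq (GRCm38.p6) gave 7 promoter windows for it, 2 for Ntf3 and 1 each for Ntrk2 and Ngfr. Each window of 300 bases, which ends 50 bases after a start, was searched on both strands for 4 motifs of activity-regulated factors. These were the cAMP response element TGACGTCA, its core TGACG, which the full element contains on both strands, the AP-1 motif TGANTCA and the Egr motif GCGNGGGCG. Of 32851 windows of that length, 1.79% held the full element, 20.8% the core, 7.81% the AP-1 motif and 5.55% the Egr motif. Of the 11 windows of these genes, 2 held a match, both at Bdnf. They are printed 5′ to 3′ on the plus strand as the 250 bases before the start, with the match in capitals. The first runs from chr2:109676782-109677031 and holds an AP-1 motif whose first base is at -152 from the start. The second runs from chr2:109692186-109692435 and holds the core of the cAMP response element on the opposite strand, with its first base at -35. They are shown because the values of Bdnf are set beside those of activity-regulated genes in the results.
Bdnf window 2: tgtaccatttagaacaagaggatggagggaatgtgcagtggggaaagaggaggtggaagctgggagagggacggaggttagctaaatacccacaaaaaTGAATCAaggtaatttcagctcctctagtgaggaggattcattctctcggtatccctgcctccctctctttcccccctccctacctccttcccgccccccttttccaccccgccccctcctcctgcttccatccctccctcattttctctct
Bdnf window 3: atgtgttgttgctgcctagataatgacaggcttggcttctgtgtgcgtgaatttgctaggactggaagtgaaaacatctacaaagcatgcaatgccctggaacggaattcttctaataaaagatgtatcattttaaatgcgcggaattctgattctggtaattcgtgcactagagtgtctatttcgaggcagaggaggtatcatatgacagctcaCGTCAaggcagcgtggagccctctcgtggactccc

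Library totals lay between 28831997 and 33104472 counts in the libraries labelled null and between 28854234 and 36531980 counts in heterozygous libraries. Counts of Rn45s, the precursor of ribosomal RNA, made up 11.8% of replicate 2 labelled null and at most 1.27% in the others. The Y-linked Ddx3y had 0 counts in replicates 4 and 10 labelled null and in heterozygous replicate 7, so both sexes were present in each group. Celf2 itself was at 390 ± 58.4 CPM (counts of the gene scaled by library size) in libraries labelled null and 408 ± 48.5 CPM in heterozygous libraries (SD, n = 3 each), a log2 fold change of -0.07. A total over the gene cannot check the genotype, and the directions below are those of the labels. All 8 neuronal genes checked were tested, and their summed level was 6527 to 7059 CPM in libraries labelled null and 6332 to 7065 CPM in heterozygous libraries. Of 7 genes of organs other than the brain, 5 were at 0 counts in at least 1 library, among them Alb and Umod, and the summed level was at most 2.85 CPM.

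None of the 7 genes passed edgeR's quasi-likelihood test between libraries labelled null and heterozygous libraries (0 of 7), and DESeq2 also called 0 of 7. Over all 15925 genes edgeR called 1, or 0.00628%, and DESeq2 called 64, or 0.402%. Bdnf and Ngfr had lower values in every library labelled null than in any heterozygous library, and both had an unadjusted p under 0.05. Over all genes tested, 2.93% were lower at that unadjusted p and 4.13% were higher. The groups did not overlap for 3 of the 7 genes, with lower values in libraries labelled null for Bdnf and Ngfr and higher values for Sort1. Over all genes tested, 6.47% were lower without overlap and 6.21% were higher. In all, 3 of the 7 genes had positive and 4 negative log2 fold changes, with a median of -0.12, against 7919 positive, 8006 negative and a median of -0.00093 over all genes tested.

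**Figure D1:**
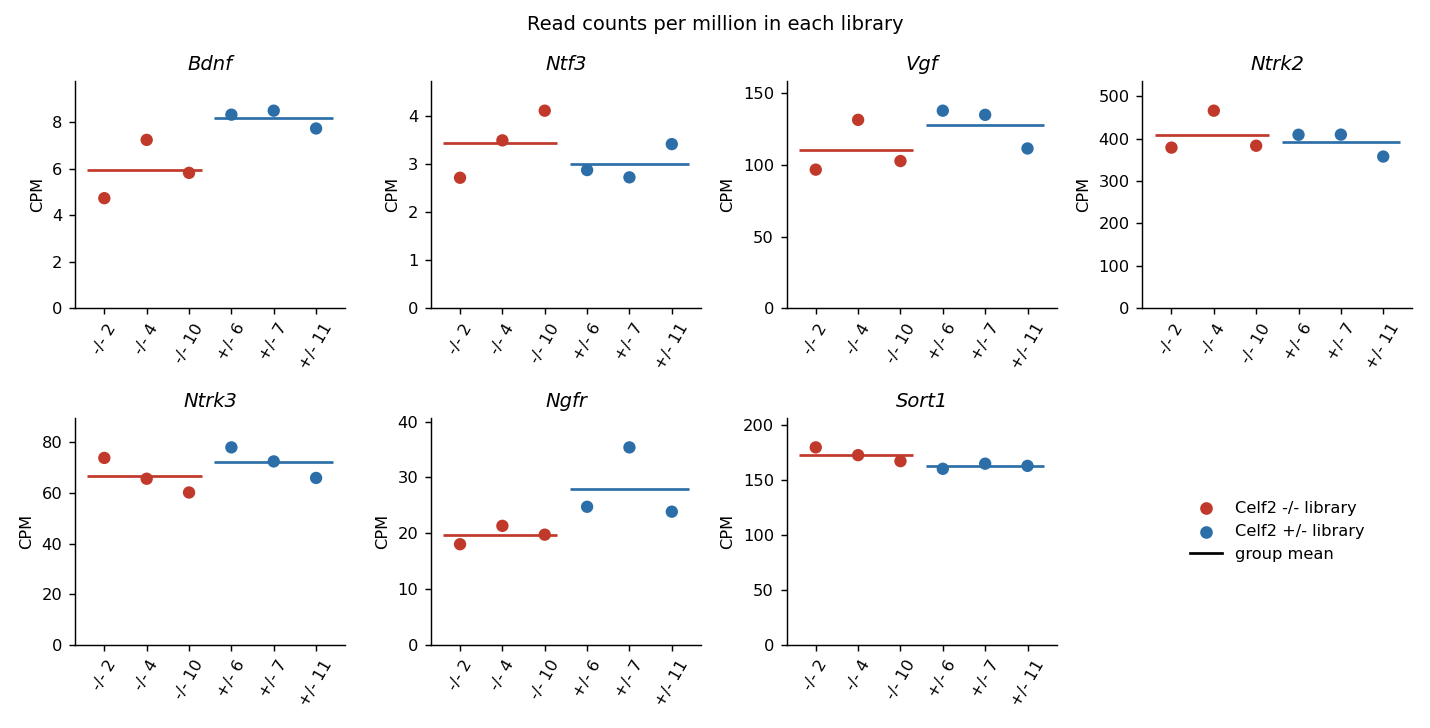
CPM (with TMM-scaled library sizes) of each gene in each library, labelled by genotype and replicate, with horizontal lines at the group means. For Bdnf and Ngfr all 3 Celf2 -/- libraries lie below all 3 Celf2 +/- libraries, and for Sort1 they lie narrowly above them.

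Bdnf, the ligand of TrkB, was the least abundant of the 7 genes per length. It was at 4.73, 7.23 and 5.81 CPM in replicates 2, 4 and 10 labelled null, against 8.31, 8.48 and 7.72 CPM in heterozygous replicates 6, 7 and 11. The groups did not overlap, the library closest to the heterozygous ones being replicate 4, and the values labelled null were more widely spread. Means were 5.92 ± 1.25 CPM in libraries labelled null and 8.17 ± 0.40 CPM in heterozygous libraries (SD, n = 3 each). This is a log2 fold change of -0.46 (SE 0.18) with a 95% interval from -0.85 to -0.07, a level 72.7% of the heterozygous one with an interval of 55.5% to 95.4%. Unadjusted, the edgeR p was 0.0253, and the adjusted p was 0.639, so the difference did not pass over all genes. These values rest on 120 to 244 reads per library labelled null and 252 to 309 per heterozygous library. In bulk tissue, fewer cells of a type and less RNA per cell cannot be told apart. Without replicate 2 labelled null, the library with the high Rn45s share and the lowest Bdnf value, the log2 fold change was -0.32 (unadjusted p = 0.0940 by edgeR). Without replicate 4 it was -0.63 (unadjusted p = 0.00592 by edgeR), and the adjusted p was then 0.613. The unadjusted edgeR p was also above 0.05 without replicate 10 labelled null (0.0582), without heterozygous replicate 6 (0.0568) and without heterozygous replicate 7 (0.0680).

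Ntf3, which encodes NT-3, the ligand of TrkC, had a profile unlike that of Bdnf. Its level was 2.72, 3.50 and 4.11 CPM in replicates 2, 4 and 10 labelled null, against 2.88, 2.73 and 3.42 CPM in heterozygous replicates 6, 7 and 11. The groups overlapped, with replicate 2 lowest of all 6 and replicate 10 highest. Its log2 fold change of 0.20 had a standard error of 0.21 and a 95% interval from -0.27 to 0.66 (edgeR adjusted p = 0.917), so neither a level of 83.0% nor one of 158% of the heterozygous level was outside the interval. Leaving out replicate 10 labelled null gave 0.05 and leaving out replicate 2 gave 0.34. The values rest on 69 to 121 reads per library labelled null and 81 to 120 per heterozygous library.

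The ratio of the 2 ligands does not depend on how libraries are scaled. Per length, Bdnf stood at 0.401, 0.477 and 0.326 of Ntf3 in replicates 2, 4 and 10 labelled null, against 0.666, 0.717 and 0.521 in heterozygous replicates 6, 7 and 11. The ratio was lower in every library labelled null. On the log2 scale it averaged -1.33 ± 0.27 in libraries labelled null and -0.67 ± 0.24 in heterozygous libraries (SD, n = 3 each), a difference of -0.67. The exact two-sided permutation test over all 20 splits gave p = 0.1, the smallest that 3 against 3 allows, and 0.2 adjusted over the 2 ratios tested.

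Vgf encodes a precursor of secreted peptides that is induced by neurotrophins, and it was the most abundant of the 7 genes per length. It was at 96.8, 131 and 103 CPM in replicates 2, 4 and 10 labelled null, against 138, 135 and 112 CPM in heterozygous replicates 6, 7 and 11. The groups overlapped because replicate 4 labelled null lay above heterozygous replicate 11, while replicates 2 and 10 lay below every heterozygous library. The fold change, -0.21 on the log2 scale with a standard error of 0.12, had a 95% interval from -0.49 to 0.06 (edgeR adjusted p = 0.799). It was -0.13 without replicate 2 labelled null and -0.36 without replicate 4 (unadjusted p = 0.00693 by edgeR), and without heterozygous replicate 11 it was -0.31 (unadjusted p = 0.0292 by edgeR). In both groups the order of the libraries was close to that of Bdnf, with replicate 4 the highest of those labelled null and replicate 11 the lowest heterozygous one.

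Immediate-early genes, which neurons transcribe shortly after stimulation, had a different profile over the same libraries. All 15 listed members were tested, 15 had positive and 0 negative log2 fold changes, the median was 1.26, and 0 passed. The median was 0.65 without replicate 4 labelled null, 1.69 without replicate 10 and 0.80 with limma-voom. At an unadjusted p under 0.05, 4 were higher and 0 lower, beside 4.13% and 2.93% of all genes tested. Fos, a subunit of the AP-1 factor, was at 78.3, 235 and 4.86 CPM in replicates 2, 4 and 10 labelled null, against 8.53, 6.43 and 4.50 CPM in heterozygous replicates 6, 7 and 11. Egr1, a zinc finger factor, was at 126, 323 and 17.6 CPM in the same libraries labelled null, against 17.3, 11.1 and 20.2 CPM in heterozygous replicates 6, 7 and 11. Replicates 2 and 4 thus stood far above the rest for both genes, and these libraries made them the most abundant of the list per length. Besides Egr1, the 3 genes at that unadjusted p were the transcription factor genes Fosl2, Nr4a2 and Nr4a3, named after their values were seen. They were higher in every library labelled null than in any heterozygous one, replicate 10 included. Of the 15 genes, these 3 were higher without overlap and 0 lower, beside 6.21% and 6.47% of all genes tested. Nr4a2 was at 49.3, 51.3 and 50.5 CPM in replicates 2, 4 and 10 labelled null, against 32.5, 39.6 and 38.2 CPM in heterozygous replicates 6, 7 and 11 (log2 fold change 0.45, edgeR adjusted p = 0.368). Unlike Fos and Egr1, it varied little among the libraries labelled null (coefficient of variation 2.00%, against 111% and 99.5%). For Bdnf, replicate 2 was the lowest library of all 6 and replicate 4 was below every heterozygous library. The list deviated from its mean over the 6 libraries by 0.75, 1.98 and -0.92 in replicates 2, 4 and 10 labelled null, and by -0.38, -0.68 and -0.75 in heterozygous replicates 6, 7 and 11. Bdnf deviated by -0.54, 0.07 and -0.25 in libraries labelled null and by 0.27, 0.30 and 0.16 in heterozygous libraries, in the same order. The highest Bdnf value among libraries labelled null was in the library with the highest immediate-early level, but between replicates 2 and 10 the library with the higher immediate-early level had the lower Bdnf value. The part of the immediate-early genes in the Bdnf and Vgf values was not tested.

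**Figure D2:**
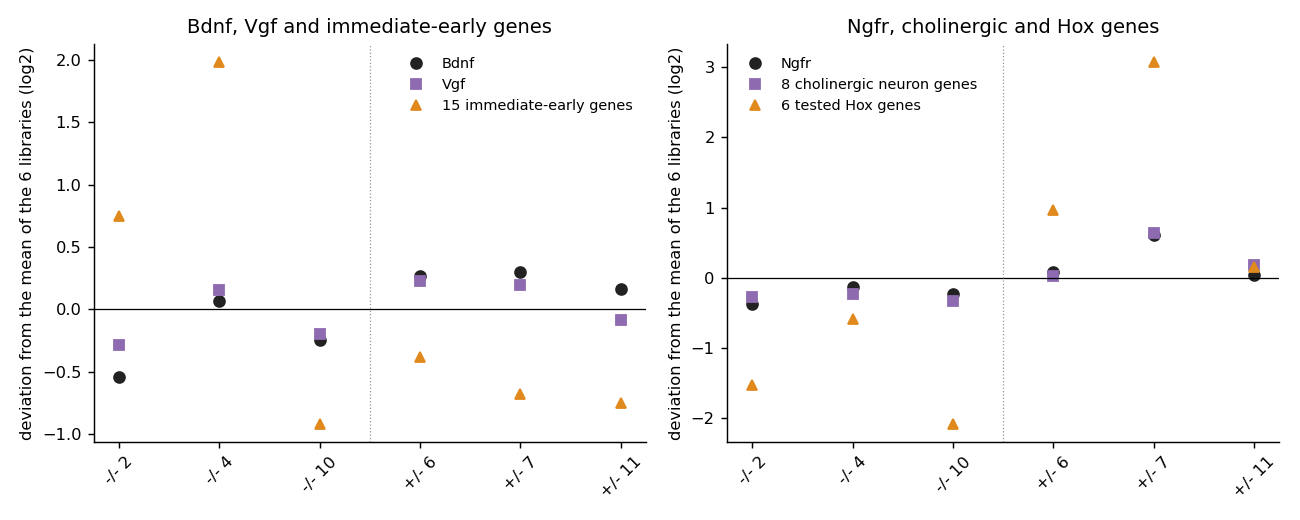
Deviation of each gene or list mean from its average over the 6 libraries, in log2 units, by genotype and replicate. On the left, the 15 immediate-early genes are high in Celf2 -/- replicates 2 and 4 (0.75 and 1.98), where Bdnf is at -0.54 and 0.07. On the right, Ngfr is highest in Celf2 +/- replicate 7 (0.60), where the 8 cholinergic neuron genes (0.64) and 6 Hox genes (3.07) are also highest. Not drawn, the lists of Schwann cells and sensory neurons (0.65), meninges (0.39), astrocytes (0.24) and oligodendrocyte lineage (0.18) are highest there too. Those of cortical excitatory neurons and of endothelium and pericytes are highest in Celf2 -/- replicate 2.

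Ntrk2, which encodes TrkB in full-length and truncated forms that gene totals do not separate, had the most counts of the 7 genes. It was at 379, 466 and 383 CPM in replicates 2, 4 and 10 labelled null, against 409, 409 and 357 CPM in heterozygous replicates 6, 7 and 11. The groups overlapped, with replicate 4 labelled null the highest library and heterozygous replicate 11 the lowest. With a log2 fold change of 0.06 (standard error 0.09) and an edgeR adjusted p of 0.949, the 95% interval from -0.14 to 0.27 bounds the level in libraries labelled null to 90.6% to 120% of the heterozygous one. Its sign turned to -0.041 without replicate 4 labelled null, so no direction is given. With library size alone it was -0.017, beside a median of -0.09 over all genes, which that scaling moves together.

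Ntrk3, which encodes TrkC, was at 73.7, 65.5 and 60.1 CPM in replicates 2, 4 and 10 labelled null, against 77.9, 72.4 and 65.9 CPM in heterozygous replicates 6, 7 and 11. The ranges overlapped through replicate 2 labelled null, which lay above heterozygous replicates 7 and 11. Between the groups the log2 difference was -0.12 with a standard error of 0.10, and its 95% interval from -0.34 to 0.10 spans 0 (edgeR adjusted p = 0.883). Leaving out 1 library at a time gave values from -0.20 (without replicate 2 labelled null) to -0.05 (without replicate 10). With library size alone, where replicate 2 carries the Rn45s reads in its total, the groups no longer overlapped, at 61.0 to 66.8 CPM in libraries labelled null and 68.9 to 79.3 CPM in heterozygous libraries. Per length, Ntrk2 stood at 1.89, 2.62 and 2.35 times Ntrk3 in replicates 2, 4 and 10 labelled null, against 1.93, 2.08 and 2.00 times in heterozygous replicates 6, 7 and 11. The ranges overlapped. The mean log2 ratio was 0.18 higher in libraries labelled null (n = 3 each), and the exact permutation test, two-sided, gave p = 0.4, also after adjustment over the 2 ratios.

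Ngfr, the p75 receptor, had the largest fold change of the 7 genes in the fit to all 6 libraries, though Bdnf had the larger one without heterozygous replicate 7 and without replicate 4 labelled null. It was at 18.0, 21.3 and 19.8 CPM in replicates 2, 4 and 10 labelled null, against 24.7, 35.4 and 23.9 CPM in heterozygous replicates 6, 7 and 11. The groups did not overlap, and heterozygous replicate 7 stood apart from the other 5 libraries. Means were 19.7 ± 1.65 CPM in libraries labelled null and 28.0 ± 6.41 CPM in heterozygous libraries (SD, n = 3 each). On the log2 scale the fold change was -0.50 (SE 0.16) with a 95% interval from -0.85 to -0.16, a level 70.5% of the heterozygous one with an interval of 55.6% to 89.4%. The unadjusted edgeR p was 0.00797 and the adjusted p 0.531, and 4.55% of all genes tested had a larger fold change in either direction. Without heterozygous replicate 7 the log2 fold change was -0.30 (unadjusted p = 0.0498 by edgeR). With the summed level of Y-linked genes as a sex covariate it was -0.62 and the adjusted p 0.164, the smallest over the alternatives tried, and for Bdnf these were -0.57 and 0.457. Over all alternatives the edgeR, limma or DESeq2 adjusted p lay between 0.164 and 0.9999 for Ngfr and between 0.457 and 0.9999 for Bdnf.

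Ngfr is known to mark cholinergic neurons of the basal forebrain and is also made by Schwann cells, peripheral sensory neurons and meningeal cells. The summed levels of some of these markers did not overlap between the groups. Of 8 cholinergic neuron genes, all tested, 6 had negative fold changes and 0 passed, and the median was -0.41. Their summed level was 123 to 137 CPM in libraries labelled null and 143 to 169 CPM in heterozygous libraries, highest in replicate 7. The 8 Schwann cell and sensory neuron genes summed to 35.6 to 54.4 CPM in libraries labelled null and 54.9 to 89.2 CPM in heterozygous libraries, again highest in replicate 7. For this list the gap between the groups was narrow, and 4 fold changes were positive and 4 negative. The 8 Hox genes, which mark hindbrain and spinal cord, summed to 2.04 to 6.16 CPM in libraries labelled null and 10.1 to 125 CPM in heterozygous libraries, and Hoxb5 was at 0 counts in at least 1 library. All 6 tested Hox genes had negative fold changes, with a median of -2.98, and 0 passed. All 6 were lower without overlap, beside 6.47% of all genes tested. So were 3 of the 8 cholinergic genes, 1 of the 8 Schwann cell and sensory neuron genes and 0 of the 8 meningeal genes. At an unadjusted p under 0.05 by edgeR, 5 of these Hox genes and 4 of the 8 cholinergic genes were lower. At that p 1 Schwann cell and sensory neuron gene and 0 meningeal genes were lower. None of these lists had a gene higher at that p, and over all genes tested 2.93% were lower and 4.13% higher. No cholinergic, Schwann cell or meningeal gene on the lists was at 0 counts in any library. Counts above 0 do not by themselves show that a cell type was present. Meningeal genes summed to 356 to 471 CPM in libraries labelled null and 220 to 537 CPM in heterozygous libraries. Their sum was lowest in heterozygous replicate 6 and highest in heterozygous replicate 7. The part of these cell types in the Ngfr values was not tested.

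Summed markers of cortical excitatory neurons and astrocytes, which carry Trk receptors, did not overlap either. The 8 genes of cortical excitatory neurons summed to 1020 to 1116 CPM in libraries labelled null and 815 to 864 CPM in heterozygous libraries, with 7 positive and 1 negative fold changes and a median of 0.39. The 8 astrocyte genes, from cells in which the truncated TrkB form is the main one, summed to 1091 to 1344 CPM in libraries labelled null and 1412 to 1492 CPM in heterozygous libraries, all 8 negative with a median of -0.17. Of 8 oligodendrocyte lineage genes 7 were negative, with a median of -0.11, and of 8 endothelial and pericyte genes 6 were positive, with a median of 0.09. No gene of these lists passed edgeR's test, and none was at 0 counts in any library. At an unadjusted p under 0.05 by edgeR, 5 of the 8 cortical genes were higher and 0 lower. For astrocytes 3 and for the oligodendrocyte lineage 2 genes were lower and 0 higher, and for endothelium and pericytes 0 in either direction. Over all genes tested, 4.13% were higher and 2.93% lower at that p. The part of these lists in the Ntrk2 and Bdnf values was not tested.

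Sort1, a sorting receptor that directs BDNF into secretory vesicles and binds neurotrophin precursors beside p75, varied least. It was at 180, 173 and 167 CPM in replicates 2, 4 and 10 labelled null, against 161, 165 and 163 CPM in heterozygous replicates 6, 7 and 11. The groups did not overlap, but the gap between them was narrow. Means were 173 ± 6.29 CPM in libraries labelled null and 163 ± 2.33 CPM in heterozygous libraries (SD, n = 3 each), so the coefficient of variation was 3.62% and 1.43%, against a biological coefficient of variation of 13.9% over all genes. On the log2 scale the libraries labelled null were 0.09 higher (standard error 0.06), with a 95% interval from -0.05 to 0.23 and an edgeR adjusted p of 0.842. The groups overlapped under upper-quartile scaling and when scaled by library size alone, which gave a log2 fold change of 0.0024 beside the median of -0.09 over all genes.

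**Figure D3:**
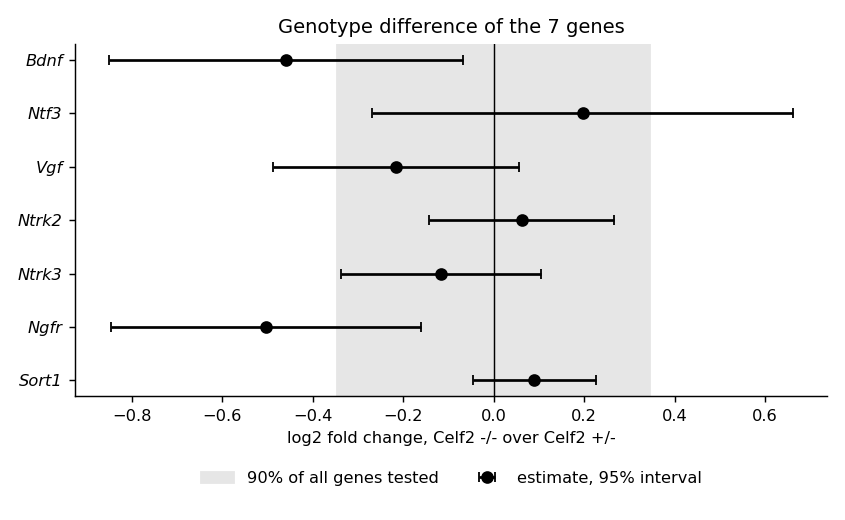
Log2 fold change of each gene, Celf2 -/- over Celf2 +/-, with its 95% interval from the quasi-likelihood fit. The shaded band, up to 0.35 on either side of 0, holds 90% of all genes tested, and Bdnf (-0.46) and Ngfr (-0.50) lie outside it.

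Levels of different genes can be ordered only per length. In CPM per kilobase, the mean over the 6 libraries was 46.7 for Vgf, 28.5 for Ntrk2, 24.3 for Sort1, 13.4 for Ntrk3, 7.01 for Ngfr, 2.08 for Ntf3 and 1.05 for Bdnf. Vgf ranked at 1632 and Bdnf at 13233 of the 15925 genes tested on this scale. Ntrk2 (25.5 to 33.2) and Sort1 (23.2 to 26.0) overlapped in their ranges over the libraries and do not differ beyond that spread, while every other pair of neighbours in the order had separate ranges. The receptors were thus at higher levels per length than their ligands in every library. The deposited lengths, 14037 bases for Ntrk2 and 6714 bases for Bdnf among them, are 1 value per symbol, so a gene whose brain transcripts are mostly shorter than that is placed too low.

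**Figure D4:**
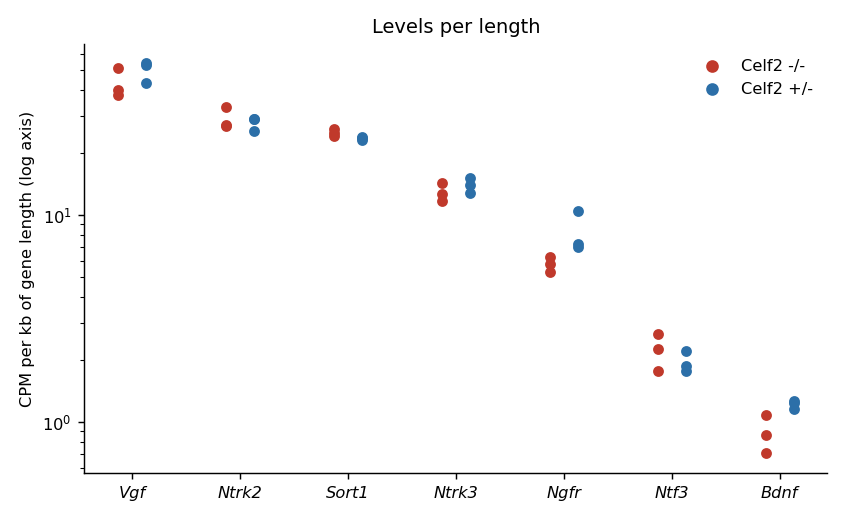
CPM per kilobase of deposited gene length in each library, on a log axis, for Celf2 -/- (left of each pair) and Celf2 +/- libraries. The order runs from Vgf (mean 46.7) to Bdnf (mean 1.05), and only Ntrk2 and Sort1 overlap with their neighbour.

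The rest of the neurotrophin family and its receptors did not pass either (0 of 7 tested, of 8 listed), with 3 positive and 4 negative fold changes and a median of -0.06. The most abundant per length were Sorcs2, a sortilin relative that pairs with p75, at 56.1 ± 2.44 CPM in libraries labelled null and 58.5 ± 1.92 CPM in heterozygous libraries (SD, n = 3 each), and Nradd, a p75 relative, at 9.15 ± 0.78 and 7.68 ± 1.01 CPM in the same order. Ntf5, which encodes the ligand NT-4 and was named after its values were seen, had at most 8 reads in any library and was not tested. The sortilin relative Sorl1, also named after its values were seen, had a log2 fold change of 0.39 (edgeR adjusted p = 0.594). At an unadjusted p under 0.05 by edgeR it was the sole listed gene, so 1 of 7 tested (14.3%) was higher and 0 lower. Over all genes tested, 4.13% were higher and 2.93% lower at that p.

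Among 17 tested of 20 listed genes of precursor cleavage and of the granin family, to which Vgf is often counted, 9 had positive and 8 negative fold changes, with a median of 0.0050, and 0 passed. Mmp3 and Mmp7, proteases that can cut neurotrophin precursors, were at 0 counts in all 6 libraries, which allows up to 0.118 CPM in the shallowest. The most abundant per length were Cpe, a carboxypeptidase of secretory granules that also binds the BDNF precursor, and Pcsk1n, an inhibitor of the convertase PC1. Cpe was at 1018 ± 113 CPM in libraries labelled null and 1066 ± 34.7 CPM in heterozygous libraries. Pcsk1n was at 272 ± 12.7 CPM in libraries labelled null and 307 ± 20.1 CPM in heterozygous libraries (SD, n = 3 each; log2 fold change -0.17, edgeR adjusted p = 0.673). At an unadjusted p under 0.05, 2 genes were lower, Pcsk1n and the granin Chga (-0.20), and 0 were higher, beside 2.93% lower and 4.13% higher of all genes tested. Chga was named after its values were seen.

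Of 43 genes of Trk adaptors and of the Ras-ERK, PI3K and phospholipase C gamma pathways, all tested, 28 had positive and 15 negative fold changes, and 0 passed. The median was 0.04, and with library size alone it was -0.04, beside a median of all genes of -0.00093 and -0.09 in the same settings, so the list kept about the same distance from all genes. At an unadjusted p under 0.05, 6 genes (14.0%) were higher and 0 lower, beside 4.13% and 2.93% of all genes tested. Kidins220, a scaffold that binds Trk receptors, was among these 6, at 841 ± 72.4 CPM in libraries labelled null and 734 ± 29.8 CPM in heterozygous libraries (SD, n = 3 each; log2 fold change 0.20, edgeR adjusted p = 0.639). Akt1, a survival kinase downstream of PI3K, was at 408 ± 16.1 CPM in libraries labelled null and 389 ± 11.9 CPM in heterozygous libraries (0.07, edgeR adjusted p = 0.895).

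The 16 partners and effectors of p75 were close to balance, with 9 positive and 7 negative fold changes, a median of 0.03 and 0 that passed. At an unadjusted p under 0.05 by edgeR, 2 (12.5%) were higher and 0 lower, beside 4.13% and 2.93% of all genes tested. With library size alone the median was -0.06, beside -0.09 over all genes, so that sign is the common shift of that scaling. Without heterozygous replicate 11 the median was also negative, at -0.017 beside -0.0023 over all genes. Maged1, an adaptor of p75, was at 1078 ± 28.3 CPM in libraries labelled null and 1015 ± 47.6 CPM in heterozygous libraries. Bex3, listed in the table under its older symbol Ngfrap1 and known for binding the p75 death domain, was at 209 ± 10.3 CPM in libraries labelled null and 221 ± 24.9 CPM in heterozygous libraries (SD, n = 3 each).

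A list of ERK feedback genes held Dusp phosphatases, Sprouty and Spred inhibitors and the ETS factors Etv1, Etv4 and Etv5, which are targets of ERK signalling and not inhibitors. Its 12 members, all tested, had a median of 0.17, with 8 positive and 4 negative fold changes, and 0 passed. The median was 0.09 without replicate 4 labelled null, and 0.08 with library size alone beside -0.09 over all genes. Dusp4, a phosphatase of ERK, was at 80.1 ± 8.78 CPM in libraries labelled null and 65.1 ± 5.98 CPM in heterozygous libraries (SD, n = 3 each; log2 fold change 0.30, edgeR adjusted p = 0.601). Spry2, an inhibitor of receptor tyrosine kinase signalling, was at 36.3 ± 2.40 CPM in libraries labelled null and 30.1 ± 2.14 CPM in heterozygous libraries (0.27, edgeR adjusted p = 0.639). Both were among 3 genes that were higher at an unadjusted p under 0.05, beside 4.13% of all genes tested. Besides them, and named after its values were seen, was the ERK phosphatase gene Dusp6 (0.41, edgeR adjusted p = 0.441).

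**Figure D5:**
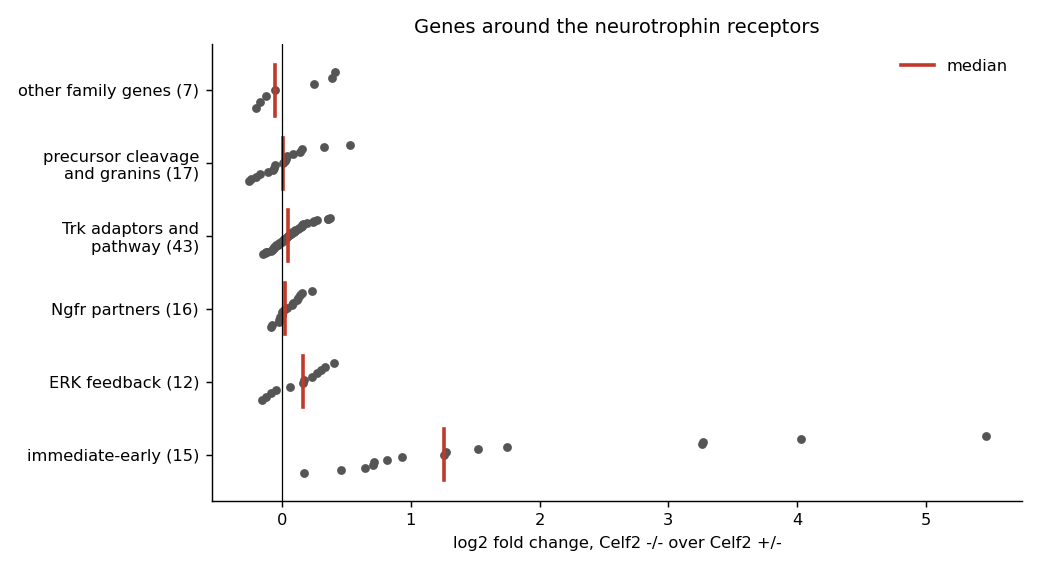
Log2 fold change, Celf2 -/- over Celf2 +/-, of every tested gene in 6 lists around the neurotrophin receptors, with the number tested in brackets and the list median as a red bar. Medians lie between -0.06 and 0.17 except for the immediate-early genes (1.26), and 0 of the genes shown passed.

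Genes whose levels followed each of the 7 most closely were found by Pearson's r of log2 CPM over the 6 libraries among 11553 genes with a mean of at least 5 CPM. With so few points many genes come close, 252 of them with r above 0.9 for Bdnf and 108 for Ngfr, so the names describe these libraries only. Nearest to Bdnf were Spock3, a matrix proteoglycan (r = 0.995), Gstm1, a glutathione transferase (0.992), and Pcbd1 (0.988). Nearest to Ngfr were Gata2, a transcription factor of midbrain and brainstem GABAergic neurons (0.995), Pm20d2 (0.990) and Pomc, the precursor of melanocortin peptides made in hypothalamus and pituitary (0.990). Ngfr itself deviated from its mean by 0.60 in heterozygous replicate 7 and by -0.37 to 0.09 in the other libraries. That library therefore weighs heavily in its r values. Pomc had a log2 fold change of -2.29 with an edgeR adjusted p of 0.697. For Sort1 the nearest were Eif4g1, a translation initiation factor (0.994), Dcx, a microtubule protein of migrating neurons (0.990), and Mycbp2, a ubiquitin ligase of axons (0.989). For Vgf they were Cd81 (0.993), Rnf139 (0.993) and Armcx3 (0.985), and for Ntf3 Eml1 (0.991), Mri1 (0.983) and Naa50 (0.982). For Ntrk2 they were Adk, the adenosine kinase (0.990), Ets2 (0.987) and Cyp2j6 (0.983), and for Ntrk3 Foxp1, a forkhead transcription factor (0.993), Gmppa (0.990) and Mrpl52 (0.988).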

How the data were processed

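RNA from newborn mouse hemibrains was extracted with TRIzol, per the labels' protocols, and a kit for stranded libraries of total RNA was used, although the series' design text names poly(A) RNA. The authors deposited whole-number read counts per gene symbol, unnormalized, and a gene length in bases, per the file headers. Per the submitters' processing notes, the tools include STAR, cutadapt and Picard, and the builds hg19 and mm9 are listed, all without roles. How reads were assigned to genes, with which annotation and strand setting, is not stated in the labels or headers. Antisense genes annotated in GENCODE M21 overlap Bdnf, Ntrk2, Ntrk3 and Sort1, and without a stated strand setting their reads cannot be told apart. Annotated genes on the same strand also overlap Ntrk2, Ntrk3 and Sort1, and a strand setting would not separate their reads.

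Under R 4.3.3, edgeR 4.0.16 was used for quasi-likelihood tests of the counts (robust dispersion, TMM factors, filterByExpr defaults), and p-values were adjusted over all genes by Benjamini-Hochberg with a threshold of 0.05. Standard errors are the absolute log2 fold change over the square root of F, and intervals are 95%. Levels are CPM with TMM-scaled library sizes. DESeq2 1.42.0 and limma 3.58.1 were alternatives, with other factors, filters, a Y-linked covariate and each library left out. The smallest chi-square per gene between 2 libraries was 12.8, so no pair agreed within sampling noise. No label says that samples shared a litter or a batch, so the tests treat samples as independent, which could not be checked. Their p-values set the difference between the groups against the spread between samples. The limit for 0 counts is 3 counts of the library and covers counting error only.

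The 7 genes, the 6 pathway lists, the 10 marker lists and the naming rule were chosen with earlier results of these data known. The rule names the 7 genes, Celf2, any listed gene that passes, the 2 most abundant tested genes of each pathway list per length and the 3 genes most correlated with each of the 7, predicted genes left out. Promoter sequences are from RefSeq (GRCm38.p6), which differs from the build in the notes. Vgf, Ntrk3 and Sort1 were not among the promoter windows used. Some members of the list of other neurotrophin family genes are not reported here by name.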

Additional observations from a re-analysis of the deposited data

How the results depend on the processing

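No paired analysis was possible because the 2 groups share no replicate number. No setting called any of the 7 genes: 0 of 7 passed with upper-quartile factors, DESeq2 size factors, library size alone, a CPM minimum, no low-count filter, the DESeq2 Wald test, limma-voom, no robust dispersion, the Y-linked covariate, or without any 1 library. Bdnf and Ngfr kept negative fold changes in all 15 alternatives, between -0.63 and -0.32 for Bdnf and between -0.62 and -0.30 for Ngfr. Ntrk2 was -0.017 with library size alone, a setting that moved the median of all genes to -0.09, and without single libraries ranged from -0.041 (without replicate 4 labelled null, a reversed sign) to 0.12. The number of genes called lower, 1 in the reported fit, was 0 with DESeq2 size factors, a CPM minimum, limma-voom or no robust dispersion, 2 with upper-quartile factors, library size alone or no low-count filter, 11 with the Y-linked covariate and 25 with the DESeq2 Wald test. The number called higher, 0 in the reported fit, was 1 with no low-count filter and 39 with the DESeq2 Wald test. Without single libraries, 0 to 1 were called lower and 0 to 3 higher, the 3 without replicate 10 labelled null. The cause of these shifts was not tested. Depth limits Bdnf and Ntf3 most, with as few as 120 and 69 reads in a library.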
